A study of Mus musculus with 8 samples.

Results

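The 10 genes described here make NAD, break down tryptophan or use nicotinamide. They were described in mouse kidneys with a Keap1 knockdown (KD) and in wild-type (WT) kidneys, after ischemia-reperfusion injury (IRI) and without it. The genes were Afmid, Kmo, Haao, Qprt, Acmsd, Nmnat1, Nadsyn1, Nampt, Nmrk1 and Nnmt, and a probe of the array was taken as theirs when its RefSeq identifier belonged to the gene. Of these 10 genes, 8 had probes and were tested, out of 20580 genes tested in all. Haao and Nmnat1 matched no probe and have no value here. The 8 genes had 11 probes, all well above background on each of the 8 arrays, so none of them was kept only through a group in which it was high.

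Total RNA from these kidneys had been hybridised to 8 Agilent arrays of 1 colour. There were 4 groups with 2 arrays each, named KD IRI, WT IRI, KD normal and WT normal. All mice were males of 16 weeks. In the IRI groups the artery and vein of the left kidney were clamped for 45 minutes and the kidney was taken 1 day later, and the normal kidneys were left kidneys of mice without this injury. The labels do not say how Keap1 was knocked down or in which cells. Nor do they state that the arrays of a group come from different animals, so p-values rest on a spread between samples that may be technical. Keap1, the adaptor protein that marks the transcription factor NRF2 for degradation, had levels of 1.38 and 1.09 in KD IRI against 2.71 and 2.55 in WT IRI, and of 1.53 and 1.44 in KD normal against 2.79 and 2.70 in WT normal. These levels, and all levels below, are log2 of the processed signal over the 75th percentile of the array's signals. Keap1 was lower in KD kidneys in both states (limma adjusted p = 0.00498 with injury and 0.0039 without).

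NAD carries electrons between the reactions of energy metabolism, and sirtuins, PARP enzymes and CD38 consume it. Cells build it from tryptophan by the kynurenine route, from nicotinic acid by the Preiss-Handler route, and from nicotinamide or nicotinamide riboside by salvage. In the kidney the enzymes of the tryptophan route are known mainly from the proximal tubule, which has a high demand for NAD. AFMID releases kynurenine from the first product of tryptophan oxidation, KMO hydroxylates kynurenine, and HAAO opens the ring to give an unstable intermediate. ACMSD diverts that intermediate to complete oxidation, whereas QPRT uses its product quinolinate to make a nicotinic acid nucleotide. NMNAT1 turns mononucleotides into dinucleotides and NADSYN1 makes NAD in the last step. NAMPT and NMRK1 recover nicotinamide and nicotinamide riboside, and NNMT methylates nicotinamide, which takes it out of salvage.

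The sequences before the starts of 3 of the genes are shown because Kmo and Nampt were the genes that passed a test between the genotypes, and because Qprt was the gene with a match to the antioxidant response element core, the motif through which NRF2 is known to act. The motif searched was TGACNNNGC on both strands, in the 250 bases before each start of the RefSeq table for GRCm38.p6. It was found in 3338 of 32851 such windows, or 10.2%. Qprt held 1 match, which began 76 bases before the start and is in capitals. Afmid, Kmo, Haao, Acmsd, Nmnat1, Nadsyn1, Nampt and Nmrk1 held none. The table matched 9 of the 10 genes, all but Nnmt. A match is a description of letters only. The window of Qprt lies at chr7:127122030-127122279 on the minus strand, that of Kmo at chr1:175631943-175632192 on the plus strand and that of Nampt at chr12:32820085-32820334 on the plus strand, each printed 5′ to 3′ in the direction of the gene.
Qprt: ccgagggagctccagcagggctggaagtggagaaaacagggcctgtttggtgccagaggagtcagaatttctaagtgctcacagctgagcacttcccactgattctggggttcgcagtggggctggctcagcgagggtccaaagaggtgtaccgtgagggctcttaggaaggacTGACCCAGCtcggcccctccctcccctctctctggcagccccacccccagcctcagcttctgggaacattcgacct
Kmo: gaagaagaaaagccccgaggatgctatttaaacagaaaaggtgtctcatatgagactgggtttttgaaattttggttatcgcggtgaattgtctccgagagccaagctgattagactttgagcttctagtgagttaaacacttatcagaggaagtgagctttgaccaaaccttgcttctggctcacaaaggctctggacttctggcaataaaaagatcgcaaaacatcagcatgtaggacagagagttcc
Nampt: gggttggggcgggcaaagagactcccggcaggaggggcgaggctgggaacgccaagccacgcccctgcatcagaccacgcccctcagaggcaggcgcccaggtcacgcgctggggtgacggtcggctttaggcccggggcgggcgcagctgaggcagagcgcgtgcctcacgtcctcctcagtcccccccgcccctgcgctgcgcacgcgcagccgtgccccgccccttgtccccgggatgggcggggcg

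With injury, Afmid, Kmo and Qprt of the tryptophan route fell in both genotypes, as did Nadsyn1 and the salvage gene Nampt, and Nnmt rose in both. Acmsd and Nmrk1 passed the test in KD and not in WT, and the difference between those responses did not pass for either gene. In KD IRI against KD normal, all 8 tested genes passed the threshold of 0.05 (1 higher, 7 lower), where 59.1% of all genes passed (28.3% higher and 30.9% lower). In WT IRI against WT normal, 6 of 8 passed (1 higher, 5 lower), where 45.7% of all genes passed (21.2% higher and 24.4% lower). The median change of the 8 genes was -1.15 in KD and -0.84 in WT on the log2 scale, against -0.061 and -0.065 for all genes. The groups did not overlap for 8 of 8 genes in KD and for 7 of 8 in WT, where 81.8% and 76.6% of all genes did not overlap. Changes below are differences on the log2 scale, given with the standard error (SE) and adjusted p of limma, from 2 arrays a group.

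The tissue also changed in its cell markers. The summed signal of 12 proximal tubule markers, relative to the array's 75th percentile, was 319 to 386 in KD IRI and 361 to 492 in WT IRI, against 1095 to 1152 in KD normal and 1039 to 1074 in WT normal. With injury 12 of 12 fell in KD and 11 of 12 in WT, and no group had any of them below background on both its arrays. The sum of 7 neutrophil markers was 54.7 to 61.1 in KD IRI and 50.8 to 109 in WT IRI, against 0.793 and 6.40 in KD normal and 0.320 and 0.321 in WT normal. Of those 7, 6 rose with injury in each genotype, and 5 of 7 were not well above background on either WT normal array. These 5 were thus kept only through other groups, and their rises in WT rest on normal levels at the floor. In KD this applies to 1 of the 7, Csf3r. The KD rises of Retnlg and Mmp8 were lost in 8 and 5 of 16 alternatives. Of 9 macrophage and monocyte markers, 7 rose and 1 fell in KD, and 8 rose and 1 fell in WT, with sums of 79.6 to 92.2 in KD IRI and 82.5 to 92.5 in WT IRI, against 70.1 to 71.0 in KD normal and 62.8 to 67.6 in WT normal. Ly6c2 carried most of these sums, with mean levels of 6.26, 6.32, 6.04 and 5.91 in the same order of groups. No other marker of the 9 had a mean above 1.21. Ly6c2 differed with injury by 0.22 in KD, which did not pass (limma adjusted p = 0.0913), and by 0.41 in WT. The median difference of the 9 markers was 1.68 in KD and 1.08 in WT. The sum of 6 fibroblast markers was 106.5 to 125 in KD IRI and 75.1 to 83.7 in WT IRI, against 21.3 to 27.8 in KD normal and 22.1 to 23.4 in WT normal. Of those 6, 4 rose with injury in each genotype and none fell past the threshold. The largest rises were of Col1a1 (5.31 in KD and 3.61 in WT) and Col1a2 (2.92 and 2.30). These were also the brightest of the 6 in the injured groups, so they weigh most in those sums. Dcn (-0.52 in KD and -0.65 in WT) and Lum (0.45 and -0.74) did not pass. The part of these cell markers in the changes of the 8 genes was not tested, and in such whole kidneys fewer cells of a type and less RNA per cell cannot be told apart.

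Afmid, the formamidase that yields kynurenine, had levels of -0.28 and -0.39 in KD IRI and 0.46 and -0.21 in WT IRI, against 2.27 and 2.35 in KD normal and 1.99 and 2.01 in WT normal. All 4 injured kidneys lay far below all 4 normal ones. Afmid was 6.27-fold lower with injury in KD (-2.65 ± 0.20, adjusted p = 6.1e-05) and 3.66-fold lower in WT (-1.87 ± 0.20, adjusted p = 0.000515).

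Kmo, the kynurenine hydroxylase, had the largest change with injury of the 8 genes in each genotype. Its levels were -1.82 and -2.42 in KD IRI and -0.97 and -1.31 in WT IRI, against 1.17 and 1.26 in KD normal and 1.18 and 1.06 in WT normal. The 4 groups stood in the order KD IRI, WT IRI, then the 2 normal groups, whose arrays interleaved. Kmo was 10.1-fold lower with injury in KD (-3.33 ± 0.20, adjusted p = 3.47e-05) and 4.80-fold lower in WT (-2.26 ± 0.20, adjusted p = 0.000308).

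Qprt, which turns quinolinate into a nucleotide, had levels of 1.90 and 1.66 in KD IRI and 2.53 and 2.08 in WT IRI, against 3.24 and 2.93 in KD normal and 3.34 and 3.28 in WT normal. The injured kidneys were again all below the normal ones. It was 2.47-fold lower with injury in KD (-1.31 ± 0.17, adjusted p = 0.000661) and 2.01-fold lower in WT (-1.004 ± 0.172, adjusted p = 0.0035).

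Acmsd, which draws the pathway away from NAD, had the largest standard error of the 8 genes and the lowest mean level in each group. Its log2 signal before scaling was 6.20 and 5.61 in KD IRI, so its fall there rests on low signal, though well above background. Its levels were -4.07 and -4.64 in KD IRI and -2.68 and -4.24 in WT IRI, against -1.93 and -1.56 in KD normal and -2.42 and -2.11 in WT normal. The 2 WT IRI arrays differed widely, and the higher of them lay just below the lower WT normal array. Acmsd was 6.12-fold lower with injury in KD (-2.61 ± 0.48, adjusted p = 0.003). In WT the difference of -1.20 ± 0.48 did not pass (adjusted p = 0.0807), and it was -0.26 on slide 1 and -2.13 on slide 2. Without WT IRI replicate 1 it passed, at -1.98 (adjusted p = 0.00357), and without WT IRI replicate 2 it was -0.41 (adjusted p = 0.329). With normexp it was -0.071 (adjusted p = 0.897).

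Nadsyn1, which makes NAD in the last step of the tryptophan and Preiss-Handler routes, had levels of 1.76 and 1.49 in KD IRI and 2.05 and 1.79 in WT IRI, against 2.68 and 2.53 in KD normal and 2.63 and 2.56 in WT normal. The normal groups overlapped and the injured kidneys lay below them. Nadsyn1 was 1.98-fold lower with injury in KD (-0.98 ± 0.13, adjusted p = 0.000611) and 1.60-fold lower in WT (-0.68 ± 0.13, adjusted p = 0.0052). Its second probe gave -0.92 in KD (adjusted p = 0.000303) and -0.65 in WT (adjusted p = 0.00246).

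**Figure D1:**
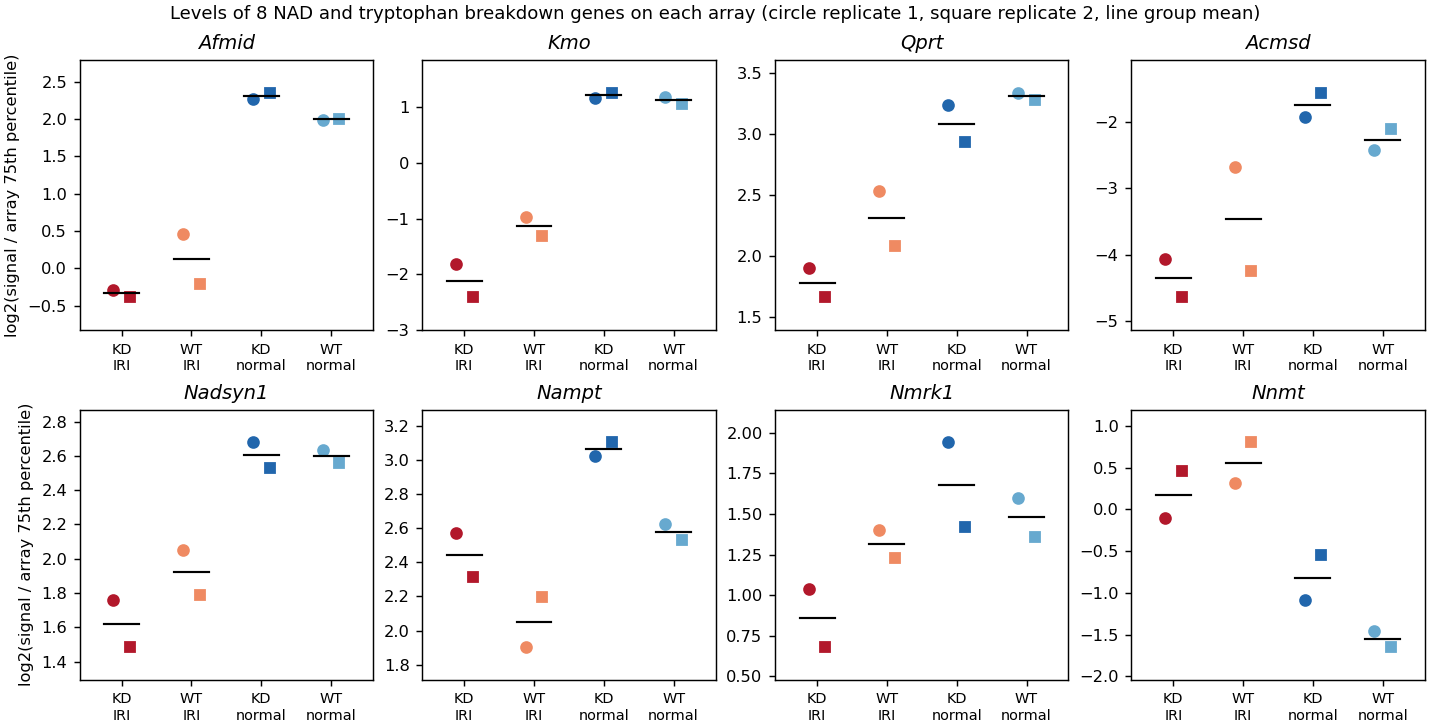
Level of each of the 8 genes on each array, as log2 of signal over the array's 75th percentile, with the groups KD IRI, WT IRI, KD normal and WT normal from left to right. Circles are replicate 1, squares replicate 2 and lines group means, and each panel has its own scale. The injured kidneys lie below the normal ones for Afmid, Kmo, Qprt, Acmsd and Nadsyn1 and above them for Nnmt.

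Nampt, the enzyme that sets the pace of nicotinamide salvage, had levels of 2.57 and 2.32 in KD IRI and 1.90 and 2.20 in WT IRI, against 3.023 and 3.103 in KD normal and 2.62 and 2.53 in WT normal. On this brightest probe, both injured kidneys of each genotype were below both normal ones, and in each state both KD kidneys were above both WT kidneys. Nampt was 1.54-fold lower with injury in KD (-0.62 ± 0.13, adjusted p = 0.00469) and 1.44-fold lower in WT (-0.53 ± 0.13, adjusted p = 0.0132). The WT call was lost without WT normal replicate 1 (-0.49, adjusted p = 0.08). The 2 other Nampt probes also had differences below 0, past the threshold in some cases only. The second gave -0.52 in KD (adjusted p = 0.0614) and -0.61 in WT (adjusted p = 0.0438), and the third -0.99 in KD (adjusted p = 0.00577) and -0.52 in WT (adjusted p = 0.0858). On the second probe KD normal replicate 1, at 1.245, lay below both WT normal arrays, at 1.458 and 1.324. In KD IRI against WT IRI the second probe differed by 0.28 (adjusted p = 0.431) and the third by 0.49 (adjusted p = 0.194).

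Nmrk1, the kinase that brings nicotinamide riboside into salvage, had levels of 1.04 and 0.68 in KD IRI and 1.40 and 1.23 in WT IRI, against 1.94 and 1.42 in KD normal and 1.60 and 1.36 in WT normal. Only KD IRI stood below all other arrays, and WT IRI overlapped WT normal. Nmrk1 was 1.76-fold lower with injury in KD (-0.82 ± 0.20, adjusted p = 0.0106), a call lost without KD IRI replicate 2 (-0.64, adjusted p = 0.0709). In WT its difference was -0.16 ± 0.20 (adjusted p = 0.534), with a 95% interval of -0.64 to 0.31.

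Nnmt, the methyltransferase that removes nicotinamide, was the 1 gene of the 8 that was higher with injury. Its levels were -0.11 and 0.46 in KD IRI and 0.32 and 0.80 in WT IRI, against -1.09 and -0.55 in KD normal and -1.46 and -1.65 in WT normal. The injured groups overlapped each other, and KD normal lay between them and WT normal. Nnmt was 2.00-fold higher with injury in KD (1.00 ± 0.26, adjusted p = 0.0149) and 4.34-fold higher in WT (2.12 ± 0.26, adjusted p = 0.000981). The KD call was lost without KD IRI replicate 2 (0.72, adjusted p = 0.0924) and without KD normal replicate 1 (0.73, adjusted p = 0.0824).

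**Figure D2:**
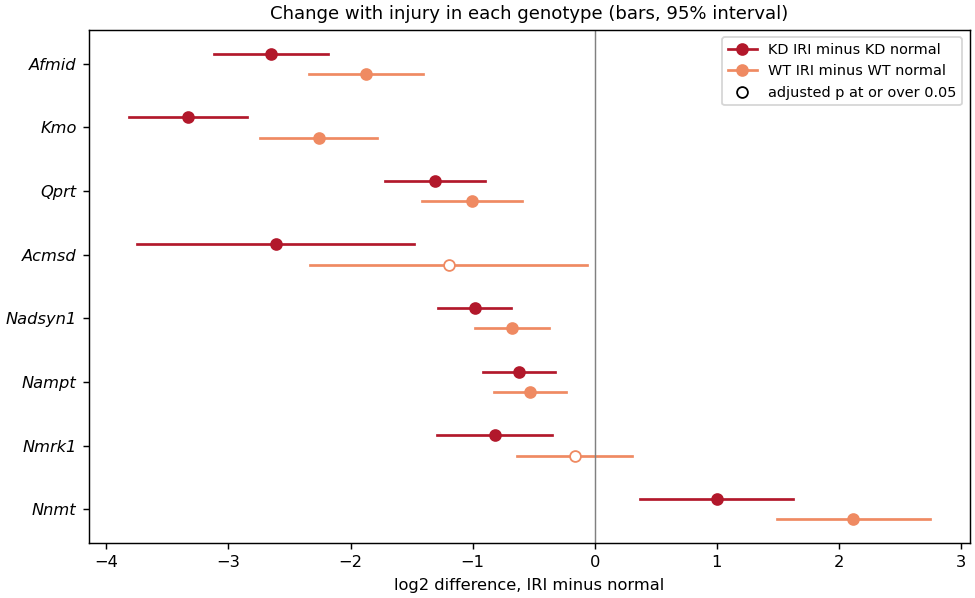
Difference with injury on the log2 scale for each of the 8 genes, IRI minus normal, in KD (red) and WT (orange), with 95% intervals from limma. Open points did not pass the adjusted threshold of 0.05, which applies to Acmsd at -1.20 and Nmrk1 at -0.16 in WT. The KD point lies left of the WT point for all 8 genes, which with normexp did not hold for Nadsyn1, Nampt and Qprt. For Nampt it did not hold in 3 of 16 alternatives.

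Whether the knockdown changed the response to injury was tested by the interaction, the injury response in KD minus that in WT. By limma, 0 of the 8 genes passed, where 6.52% of all genes did (3.79% above 0 and 2.73% below). An unadjusted p under 0.05 was found for 3 of the 8, and for 5372 of all 20580 genes. The estimates of all 8 genes lay below 0, with a median of -0.72 against 0.003 for all genes, of which 49.7% lay below 0. With normexp background correction, which moved the median of all genes to -0.30, those of Nadsyn1, Nampt and Qprt lay above 0 instead, at 0.008, 0.16 and 0.007, and those of Kmo (-1.05, adjusted p = 0.00821), Acmsd (-1.96, adjusted p = 0.0203) and Nnmt (-1.004, adjusted p = 0.0198) passed. The interaction of Kmo was -1.07 ± 0.29 (adjusted p = 0.0756), of Nnmt -1.12 ± 0.37 (adjusted p = 0.121) and of Afmid -0.78 ± 0.28 (adjusted p = 0.139). That of Acmsd was -1.42 ± 0.68 (adjusted p = 0.239), with a 95% interval of -3.03 to 0.19, so these arrays bound it loosely. The interaction was -0.66 ± 0.28 for Nmrk1 (adjusted p = 0.199), -0.31 ± 0.18 for Nadsyn1 (adjusted p = 0.329), -0.30 ± 0.24 for Qprt (adjusted p = 0.479) and -0.092 ± 0.18 for Nampt (adjusted p = 0.789). Without WT IRI replicate 2, Acmsd (-2.20, adjusted p = 0.0368) and Afmid (-1.11, adjusted p = 0.0185) passed, and without WT IRI replicate 1 they were at -0.64 (adjusted p = 0.347) and -0.44 (adjusted p = 0.0745). The interaction shares its arrays with each of the other comparisons.

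In injured kidneys, KD differed from WT past the threshold for 1 of the 8 genes, where 7.2% of all genes passed (3.75% higher and 3.45% lower). Kmo was 1.97-fold lower in KD IRI than in WT IRI (-0.98 ± 0.20, adjusted p = 0.0376), with differences of -0.85 on slide 1 and -1.10 on slide 2. That call was lost in 9 of 17 alternatives, among them leaving out KD IRI replicate 2 (-0.68, adjusted p = 0.163) and WT IRI replicate 1 (-0.81, adjusted p = 0.106). Leaving out an array of a group that is not compared also ended it, with adjusted p of 0.0544 and 0.0542 without KD normal replicates 1 and 2, and 0.0807 and 0.0805 without WT normal replicates 1 and 2. Of the other genes, Qprt differed by -0.53 ± 0.17 (adjusted p = 0.108), Acmsd by -0.90 ± 0.48 (adjusted p = 0.281), Afmid by -0.47 ± 0.20 (adjusted p = 0.186) and Nmrk1 by -0.46 ± 0.20 (adjusted p = 0.2). Nadsyn1 differed by -0.30 ± 0.13 (adjusted p = 0.189), Nnmt by -0.38 ± 0.26 (adjusted p = 0.397) and Nampt, the 1 gene with a difference above 0, by 0.39 ± 0.13 (adjusted p = 0.104). The groups did not overlap for 6 of 8 genes, where 57.1% of all genes did not overlap, and the median was -0.46 against -0.041 for all genes. Qprt passed with the slide as a block (adjusted p = 0.0373). Without WT IRI replicate 2, Qprt (-0.76, adjusted p = 0.0436), Acmsd (-1.68, adjusted p = 0.0349) and Afmid (-0.80, adjusted p = 0.0181) passed as well as Kmo. Without WT IRI replicate 1, Acmsd was at -0.12 (adjusted p = 0.861) and Afmid at -0.13 (adjusted p = 0.458). With normexp Acmsd (-1.32, adjusted p = 0.0254) and Nampt (0.52, adjusted p = 0.0366) passed with Kmo. In the same comparison 3 of 12 proximal tubule markers were lower and none higher, 2 of 6 fibroblast markers were higher and none lower, and 2 of 3 liver markers were lower (Ttr at -2.53, adjusted p = 0.0223, and Alb at -1.08, adjusted p = 0.0294). With injury 3 of 3 liver markers fell in KD and 2 of 3 in WT. Both WT calls were lost with normexp (limma adjusted p = 0.596 for Ttr and 0.0794 for Alb). Ttr was not well above background on either KD IRI array, so its point differences there rest on a level at the floor. Its KD IRI level was therefore also raised to the lowest level well above background of any probe on the array. Ttr was then 4.67-fold lower in KD IRI than in WT IRI, and 18.6-fold lower than in KD normal. These folds are not lower bounds, since the log2 differences were as small as -1.74 and -2.72 in some alternatives. Each of those marker calls between the genotypes was lost in some of the alternatives, and their part in these differences was not tested.

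In kidneys without injury, 1 of the 8 genes passed between KD and WT, where 15.3% of all genes passed (6.34% higher and 8.97% lower). Nampt was 1.40-fold higher in KD normal than in WT normal (0.49 ± 0.13, adjusted p = 0.0453), by 0.40 on slide 1 and 0.57 on slide 2. The adjusted p was 0.0559 with the slide as a block. The call was lost in 12 of 17 alternatives, including each fit without one of the 4 normal arrays (adjusted p of 0.0949 and 0.156 without KD normal replicates 1 and 2, and of 0.157 and 0.203 without WT normal replicates 1 and 2) or without either KD IRI array (0.0554 each). The second Nampt probe differed by 0.18 (adjusted p = 0.576) and the third by 0.97 (adjusted p = 0.0269). Nnmt differed by 0.74 ± 0.26 (adjusted p = 0.104), by 0.37 on slide 1 and 1.10 on slide 2, and passed with normexp (0.76, adjusted p = 0.00922). KD normal replicate 2, the higher of the KD arrays for Nnmt, was also the one with the larger neutrophil marker sum (6.40 against 0.793), whose part was not tested. The differences of Kmo (0.091 ± 0.20, adjusted p = 0.797), Afmid (0.31 ± 0.20, adjusted p = 0.317), Nmrk1 (0.20 ± 0.20, adjusted p = 0.536) and Acmsd (0.52 ± 0.48, adjusted p = 0.5) did not pass. Nor did those of Qprt (-0.23 ± 0.17, adjusted p = 0.408) and Nadsyn1 (0.008 ± 0.13, adjusted p = 0.973). The 95% interval of Nadsyn1 was -0.29 to 0.31, and its estimate was -0.17 with normexp and -0.055 with quantile normalization. Afmid passed without WT IRI replicate 1 (adjusted p = 0.0381), without WT IRI replicate 2 (adjusted p = 0.0376), and when only the 4 normal arrays were fitted (adjusted p = 0.0488). The groups did not overlap for 5 of 8 genes, where 64.7% of all genes did not overlap. By limma 0 of 12 proximal tubule markers passed in this comparison. Of the 12, 1 had an unadjusted p under 0.05, as did 6772 of all 20580 genes.

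**Figure D3:**
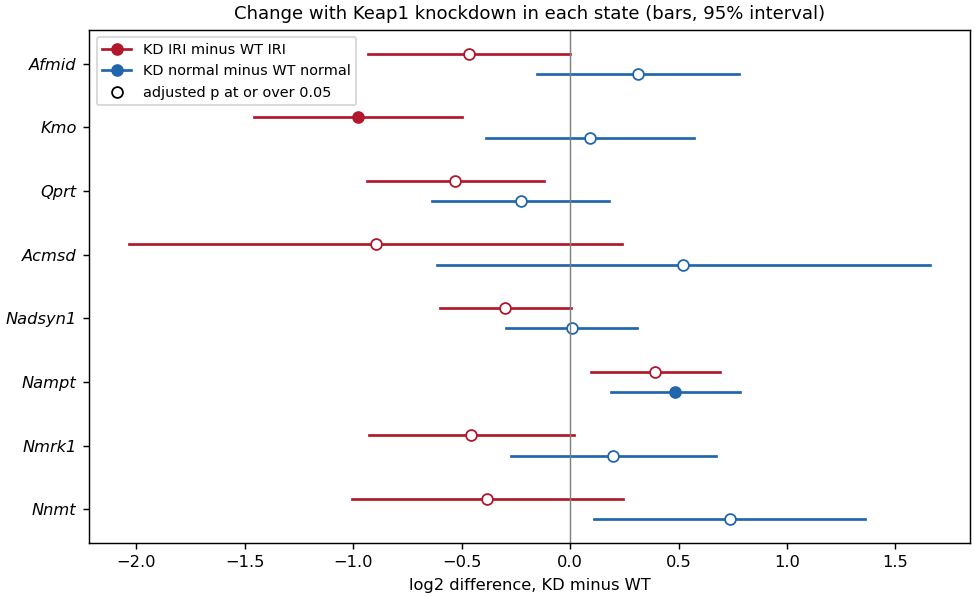
Difference with Keap1 knockdown on the log2 scale for each of the 8 genes, KD minus WT, in injured (red) and normal kidneys (blue), with 95% intervals from limma. Filled points passed the adjusted threshold of 0.05, which applies to Kmo at -0.98 with injury and Nampt at 0.49 without. For 6 genes the injured point lies below 0 and the normal point above it. The normal difference turned sign in 4 of 17 alternatives for Nadsyn1, among them normexp and quantile normalization, and in 1 of 17 for Nmrk1.

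Across the 8 arrays, and with each gene centred on its own mean, the 8 genes fell into patterns of different size. The measure of likeness was the root mean square difference on the log2 scale. Qprt and Nadsyn1 were closest to each other, at 0.21, followed by Nadsyn1 and Nmrk1 at 0.22, and Kmo and Afmid lay 0.37 apart. The measure is not scaled to a gene's own range, so genes that change little tend to lie closer. Those ranges over the 8 arrays were 1.19 for Nadsyn1, 1.26 for Nmrk1, 1.68 for Qprt, 2.74 for Afmid and 3.67 for Kmo. Among all other genes with a symbol, the nearest to Qprt was Crat at 0.052, to Kmo Ugt3a1 at 0.11, to Afmid Sord at 0.11 and to Acmsd Anpep at 0.21. The nearest to Nadsyn1 was Ndufs6 at 0.046, and the next was Naprt at 0.051, which encodes the first enzyme of the Preiss-Handler route. The nearest to Nampt was Zbtb44 at 0.085, to Nmrk1 Bmpr2 at 0.098 and to Nnmt Ms4a4c at 0.12. These likenesses rest on the same 4 groups and on the same 8 arrays.

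Other genes of tryptophan and NAD metabolism, 45 of 52 of which were tested, fell more often than they rose with injury. In KD IRI against KD normal 27 fell (60% of 45, against 30.9% of all genes), 13 rose (28.9% against 28.3%) and the other 5 did not pass (median -0.68). In WT IRI against WT normal 24 fell (53.3% against 24.4%), 10 rose (22.2% against 21.2%) and the other 11 did not pass (median -0.53). The share that rose was thus near that of all genes in both genotypes. Of the 44 genes with a probe well above background on all 8 arrays, 12 rose and 27 fell in KD. In WT 9 of those 44 rose and 24 fell. In KD IRI against WT IRI 1 rose and 8 fell, or 20% against 7.2% of all genes. The number lower was 0 without KD IRI replicate 2 and without either WT normal replicate, 1 without KD IRI replicate 1 and in a fit of the compared arrays alone, and 12 with the slide as a block. In KD normal against WT normal 3 rose and 3 fell, or 13.3% against 15.3% of all genes, which is near the background, and without either WT normal replicate 1 rose and 0 fell. In the interaction 5 lay below 0 past the threshold and none above, or 11.1% against 6.52%, and 0 passed without either KD IRI replicate, without either WT normal replicate and with no intensity trend. The number below 0 was 2 and 1 without KD normal replicates 1 and 2, and 1 with no filter on dim probes. The alternatives for these genes were added after the data had been seen. The counts of the subgroups below stand beside the same shares of all genes with injury, 28.3% higher and 30.9% lower in KD and 21.2% higher and 24.4% lower in WT.

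Among the enzymes at the entry of tryptophan and the branches from kynurenine, 5 of 6 fell with injury in KD and 4 of 6 in WT, and none rose. Ido2, an indoleamine dioxygenase that opens the ring of tryptophan, fell by 5.37 ± 0.47 on the log2 scale in KD (adjusted p = 0.000112) and fell by 3.76 ± 0.47 in WT (adjusted p = 0.000977). Aadat, which turns kynurenine into kynurenic acid, fell by 4.24 ± 0.33 in KD (adjusted p = 7.19e-05) and fell by 3.44 ± 0.33 in WT (adjusted p = 0.000384). Its fellow aminotransferase Kyat1 fell by 2.72 ± 0.27 in KD (adjusted p = 0.000174), while the WT difference of -0.65 ± 0.27 did not pass (adjusted p = 0.0852). The interaction of Kyat1 was -2.07 ± 0.37 (adjusted p = 0.0318). With injury Kyat1 was lower in KD than in WT (-1.63 ± 0.27, adjusted p = 0.0217). The interaction call was lost in 7 of 16 alternatives, with adjusted p of 0.0683 and 0.122 without KD IRI replicates 1 and 2, 0.0564 without WT IRI replicate 2, and 0.0981 and 0.115 without WT normal replicates 1 and 2. The call between injured kidneys was lost in 5 of 17, all of them fits without one of these same arrays (adjusted p up to 0.148).

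All 5 tested enzymes that carry the product of ACMSD on to complete oxidation fell with injury in both genotypes. Aldh8a1, the aldehyde dehydrogenase that acts just after ACMSD, fell by 2.98 ± 0.21 in KD (adjusted p = 5.25e-05) and fell by 1.42 ± 0.21 in WT (adjusted p = 0.00195), with an interaction of -1.56 ± 0.30 (adjusted p = 0.0349). Dhtkd1, a subunit of the dehydrogenase of 2-oxoadipate, fell by 2.58 ± 0.25 in KD (adjusted p = 0.000166) and fell by 2.35 ± 0.25 in WT (adjusted p = 0.000532). Aldh8a1 was also lower in KD IRI than in WT IRI (-1.23 ± 0.21, adjusted p = 0.0237). Its interaction call was lost in 8 of 16 alternatives, among them the fits without any one KD array or any one WT normal array (adjusted p up to 0.123), and the call between injured kidneys in 6 of 17 (adjusted p up to 0.148 without KD IRI replicate 2). The WT fall of Dhtkd1 was lost with normexp (-0.94, adjusted p = 0.102).

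In the Preiss-Handler, salvage and NADP group, 2 of 7 rose and 5 fell with injury in KD, and 1 rose and 3 fell in WT. Nt5e, an ectoenzyme that makes nucleosides from nucleotides, fell by 2.00 ± 0.25 in KD (adjusted p = 0.000471), while the WT difference of -0.53 ± 0.25 did not pass (adjusted p = 0.122), and the interaction did not either (-1.48 ± 0.35, adjusted p = 0.0535). Nadk2, the mitochondrial NAD kinase, fell by 1.33 ± 0.11 in KD (adjusted p = 9.9e-05) and fell by 1.21 ± 0.11 in WT (adjusted p = 0.000338). Naprt, which has the role given above, fell by 0.98 ± 0.12 in KD (adjusted p = 0.000524) and fell by 0.64 ± 0.12 in WT (adjusted p = 0.00555). Aox1, the aldehyde oxidase that oxidises the methylated product of NNMT, moved the other way, rising by 1.39 ± 0.18 in KD (adjusted p = 0.000541) and by 1.63 ± 0.18 in WT (adjusted p = 0.000578). Aox1 was also higher in KD than in WT kidneys, by 1.55 ± 0.18 with injury (adjusted p = 0.00991, and 0.059 and 0.0793 without KD IRI replicates 1 and 2) and by 1.79 ± 0.18 without (adjusted p = 0.00415).

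The enzymes that consume NAD were split. With injury 8 of 14 rose and 5 fell in KD, and 6 rose and 5 fell in WT. Those that rose include Sirt6 (0.83 in KD and 0.73 in WT). Sirt6 was not well above background on any normal array, so it was kept only through the injured groups. With normexp Sirt6 did not pass in KD (adjusted p = 0.643) or in WT (adjusted p = 0.599). Its KD difference turned sign in 1 of 16 alternatives. Sirt3, the mitochondrial deacetylase, fell by 2.35 ± 0.13 in KD (adjusted p = 2.79e-05) and fell by 1.48 ± 0.13 in WT (adjusted p = 0.000299), with an interaction of -0.88 ± 0.19 (adjusted p = 0.043). That interaction was lost in 10 of 16 alternatives, among them 7 of the 8 fits without one array, and was -0.51 with normexp (adjusted p = 0.439). Parp3, an ADP-ribosyltransferase of DNA repair, rose by 1.03 ± 0.15 in KD (adjusted p = 0.0012) and by 1.09 ± 0.15 in WT (adjusted p = 0.0016). Parp2, of the same family, rose by 1.13 ± 0.10 in KD (adjusted p = 0.000129) and by 0.58 ± 0.10 in WT (adjusted p = 0.00393). Cd38, the NAD glycohydrolase of immune and other cells, rose by 1.48 ± 0.33 in KD (adjusted p = 0.00745, but 0.74 and 0.146 with normexp), and its WT difference of 0.83 ± 0.33 did not pass (adjusted p = 0.0796). The interaction of Cd38 did not pass either (0.65 ± 0.47, adjusted p = 0.431).

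Among 9 transporters of tryptophan, nicotinic acid and related compounds, 2 rose and 5 fell with injury in KD, and 3 rose and 5 fell in WT. Slc12a8, which rose in both, did not pass with normexp (limma adjusted p = 0.743 in KD and 0.436 in WT). Its KD difference turned sign in 1 of 17 alternatives. The fall of Slc7a8 was lost in 10 of 17 alternatives in KD and 11 of 17 in WT. Slc22a13, a transporter of nicotinic acid and urate, fell by 6.36 ± 0.18 in KD (adjusted p = 5.55e-06) and fell by 6.59 ± 0.18 in WT (adjusted p = 1.01e-05). Slc5a8, which carries nicotinic acid and monocarboxylates, fell by 4.95 ± 0.40 in KD (adjusted p = 8.77e-05) and fell by 3.16 ± 0.40 in WT (adjusted p = 0.00108). Slc7a5, the exchanger of large neutral amino acids, rose by 2.82 ± 0.22 in KD (adjusted p = 7.46e-05) and by 2.40 ± 0.22 in WT (adjusted p = 0.000331). Of the 4 regulators, 1 rose and 2 fell with injury in KD, and 2 fell in WT. Ahr, the receptor that kynurenine can activate, rose by 0.73 ± 0.14 in KD (adjusted p = 0.00406, and 0.0647 with normexp), and its WT difference of 0.16 ± 0.14 did not pass (adjusted p = 0.397). The interaction of Ahr did not pass either (0.57 ± 0.20, adjusted p = 0.137). Ppargc1a, the coactivator of mitochondrial genes, fell by 1.84 ± 0.24 in KD (adjusted p = 0.000626) and fell by 1.25 ± 0.24 in WT (adjusted p = 0.00552). Ppara, the receptor that drives fatty acid oxidation, fell by 2.56 ± 0.27 in KD (adjusted p = 0.000248) and fell by 1.07 ± 0.27 in WT (adjusted p = 0.017, and 0.0712 without WT IRI replicate 1 and 0.0998 without WT normal replicate 1).

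**Figure D4:**
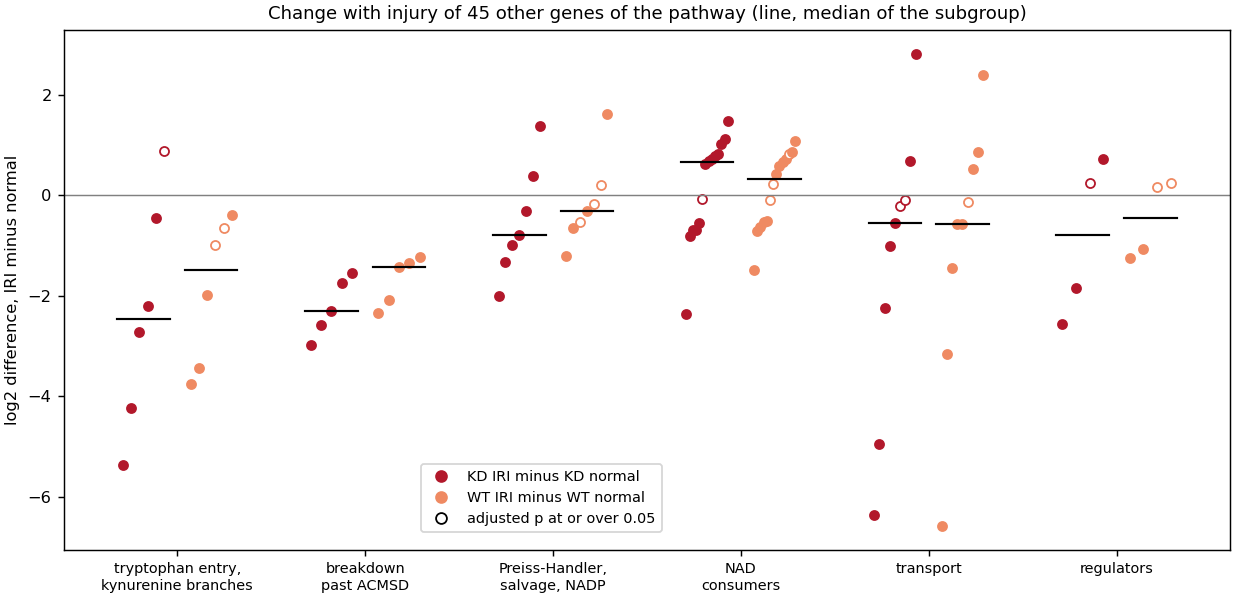
Difference with injury on the log2 scale, IRI minus normal, of the 45 other tested genes of tryptophan and NAD metabolism in 6 subgroups, with KD (red) left of WT (orange). Each point is a gene, filled where it passed the adjusted threshold of 0.05, and lines are subgroup medians. The subgroups of tryptophan entry and of breakdown past ACMSD lie mostly below 0, with medians of -2.46 and -2.30 in KD and -1.49 and -1.42 in WT, and the NAD consumers lie on both sides.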

How the data were processed

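The deposited scanner files give fluorescence intensity on a linear scale for 8 single-colour arrays, made from 300 ng of total RNA each. Per the file headers, Agilent Feature Extraction 10.7.3.1 subtracted the background and detrended the signal, and the array design names probes on mm9. The deposited value table holds log2 values, whose scaling the labels do not state: per array, 99% of its 40934 probes lay within 0.00157 of the log2 signal scaled to the 75th percentile, less the median of that probe across arrays. Its column medians were -0.136 and -0.117 in KD IRI, -0.0746 and -0.0822 in WT IRI, 0.0952 and 0.0564 in KD normal, and 0.16 and 0.125 in WT normal.

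From the intensity, control and outlier spots were left out, spots of a probe were averaged, and log2 values were taken relative to each array's 75th percentile. Probes were kept if some group had them well above background on both its arrays (27408 of 41174), and the brightest probe stood for a gene, which gave 20580 genes, 14106 with a symbol from RefSeq. Of spots, 62.1% to 67.8% were well above background and none was saturated. Within groups r was 0.989 to 0.994 across genes, which are not independent replicates. limma 3.58.1 in R 4.3.3, with version 1.17.8 of data.table and matplotlib 3.10.9 for figures, fitted all 8 arrays with an intensity trend (degrees of freedom: 4 residual, median prior 2.925), two-sided, with Benjamini-Hochberg adjustment over 20580 genes in each of 5 comparisons. The fit was tested on simulated data. Precision is limited by the number of arrays.

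Replicate 1 of every group lay on slide 1 and replicate 2 on slide 2, so the number is that of the slide. Deviations of same-numbered arrays correlated between groups with r of 0.022 to 0.262. A shared slide batches the arrays, so fits with the slide as a block are given beside results of the 8 genes whose call it changed. Alternatives were quantile normalization, normexp with an offset of 50 on the median spot signal (the planned mean signal is not among the columns used), the deposited table, other filters and probe rules, no trend, only the arrays compared, the block, and leaving out each array. The same alternatives were run for the other genes and markers after the data had been seen.

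The 10 genes and the lists of other genes and markers were chosen with earlier results of these data known. All 10 are named, and from each subgroup of other genes up to 2 with the largest rise and 2 with the largest fall past the threshold in a comparison. Sirt6 is named as well, because of its low signal in normal kidneys, and Slc7a8 because its calls were lost in most alternatives. Fat markers (3 of 4 tested), endothelial markers and liver markers (3 of 4 tested) had summed signals relative to the 75th percentile of 1.06 to 5.48, 20.2 to 22.7 and 0.165 to 0.217 in KD IRI, of 4.43 to 4.76, 26.9 to 27.5 and 0.375 to 0.426 in WT IRI, of 1.71 to 7.59, 20.8 to 23.5 and 1.15 to 1.27 in KD normal, and of 1.97 to 9.36, 22.7 to 25.4 and 0.961 to 1.05 in WT normal.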

Additional observations from a re-analysis of the deposited data

How the results depend on the processing

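The number of the 8 genes that passed was 8 in KD IRI against KD normal and 6 in WT IRI against WT normal, and stayed within 1.5 times of that in every alternative, with 6 to 8 and 5 to 7 when an array was left out. In KD IRI against WT IRI it was 1, and 0 with no filter on dim probes, with no trend and with only the arrays compared, 2 with the replicate block and 3 with normexp. It was 0 to 4 when an array was left out. In KD normal against WT normal it was 1, and 0 with the mean of all probes, no filter, no trend, quantile normalization and the replicate block, 2 with only the arrays compared, and 0 to 2 when an array was left out. The interaction had 0, against 3 with normexp and 0 to 2 when an array was left out. The counts of all genes moved more. Without the filter they were 15088 in WT IRI against WT normal, 1984 in KD normal against WT normal and 572 in the interaction. With normexp they were 6942 in KD IRI against KD normal, 5202 in WT IRI against WT normal and 1327 in KD normal against WT normal. With no trend they were 958 in KD IRI against WT IRI and 758 in the interaction, and with only the arrays compared 67 in KD IRI against WT IRI. When an array was left out they were 9243 to 12525 in KD IRI against KD normal, 5890 to 9653 in WT IRI against WT normal (lowest without WT normal replicate 1), 24 to 1580 in KD IRI against WT IRI (lowest without KD IRI replicate 2), 122 to 3863 in KD normal against WT normal (lowest without WT normal replicate 2), and 5 to 1687 in the interaction (lowest without WT normal replicate 1). Normexp moved the median of all genes to -0.31 in KD IRI against KD normal and 0.22 in WT IRI against WT normal, and the filter's absence to -0.29 and -0.27. Signs turned only for differences that did not pass. Nadsyn1 in KD normal against WT normal was -0.17 with normexp, -0.055 with quantile normalization and -0.066 to 0.081 without an array, and Nmrk1 there -0.062 to 0.46. The interactions of Nadsyn1, Nampt and Qprt were 0.008, 0.16 and 0.007 with normexp, and that of Nampt -0.24 to 0.053 without an array. The replicate block changed no call of the 8 genes other than those of Nampt and Qprt given above. The cause of these shifts was not tested. With 2 arrays a group, a difference that missed the threshold is not shown to be absent.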
